A study of Homo sapiens with 8 samples.

Results

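The 3′ end libraries and the RNA-seq libraries of cells with gNT, the non-targeting control gRNA, were compared gene by gene. Both assays were made from HEK293TAPA cells, a human embryonic kidney line that stably carries an alternative polyadenylation (APA) reporter at a medium level, 48 h after co-transfection with dPguCas13b, a nuclease-dead Cas13b, and gNT. All 4 libraries thus carry the reporter, dPguCas13b and gNT, and they are 4 of the 8 samples of the series, 2 for each assay. The members are the genes found in both tables: the reads of all polyadenylation sites (PASs) that name 1 gene were summed per gene and joined by Ensembl identifier, which gave 15613 genes of the 60607 in the RNA-seq table. Nothing in the labels says whether the 2 libraries of an assay came from separate transfections, so p-values measure the spread between these libraries only.

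As background, a polyadenylated mRNA is cut at a PAS and receives its tail there. A 3′ end library made with the QuantSeq REV kit starts each read at the junction with the tail, so an mRNA gives a read at 1 place whatever its length. RNA-seq of polyadenylated RNA breaks the mRNA into fragments, so a long mRNA gives more reads than a short one present in as many copies. Retrocopies, annotated as processed pseudogenes, are DNA copies of a spliced mRNA that were inserted elsewhere in the genome. They lack the introns of the parent gene and often end in the A-rich remnant of its tail.

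The joined genes held 2110285 and 1408262 reads in the 3′ end libraries (replicates 1 and 2) and 8985226 and 9382815 in the RNA-seq libraries (replicates 5 and 6). These were 88.6% and 88.4% of the 3′ end reads and 72.1% and 72.3% of the RNA-seq reads. The values are CPM, counts scaled so that the joined genes have the same total in every library. The PAS table covers 20 chromosomes, the last of them, chromosome 7, in part, and genes elsewhere were not analysed here. All 8 HEK293T-like markers had reads in both assays, with summed levels of 1204 and 1228 CPM in the 3′ end libraries and 1720 and 1716 CPM in RNA-seq. TUBB2B, a beta tubulin, had a log2 ratio of 3′ end over RNA-seq of 2.81 ± 0.08 (SE), while VIM, IGF2BP1 and LIN28B lay at −1.13 ± 0.05, −0.87 ± 0.05 and −1.19 ± 0.08. PAX2, a kidney lineage factor, was low, with 1 and 2 reads in the 3′ end libraries and 60 and 33 in RNA-seq. The 10 joined markers of blood, liver, connective tissue and endothelium summed to 2.84 and 2.84 CPM in the 3′ end libraries and to 9.24 and 5.33 CPM in RNA-seq, and 2 of them had enough counts to be tested. Between the 2 libraries of an assay, counts differed by 1.49 times the sampling noise for the 3′ ends and 1.69 times for RNA-seq (chi-square per degree of freedom).

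The printed pairs of sequences are examples among the processed pseudogenes with far more 3′ end reads than RNA-seq counts. An end of the parent gene was found at 64 of 210 such pseudogenes. Of these 64 ends, 45 had at least 15 A in the next 20 bases. Each line gives, from GRCh38, 10 bases in lower case and the 20 genomic bases that follow in capitals. The parent gene comes first and its retrocopy second. For the parent, the 10 bases are the last of its annotated 3′ end. For the retrocopy, they are the last of the stretch that the parent's end matched, at or within 2 kb after the annotated pseudogene.
RPS12, chr6:132817555-132817584, plus strand: ttggctcacaTTCCTCATGTCTGGCTTTTT
AP001324.1, chr11:74745674-74745703, minus strand: ttggctcacaAAAAAAAAAAAAAAAAAAAA
RPL10A, chr6:35470771-35470800, plus strand: attaccagttCCCTCTGTCTGCCTGTGATT
RPL10AP6, chr3:61742405-61742434, minus strand: attaccagttCAAAAAAAAAAAAAAAAAAA
RPL3, chr22:39312862-39312891, minus strand: tccactgacaTCTTGCCTCTTTCTTCAGGA
RPL3P4, chr14:98972801-98972830, minus strand: tccactgaaaAAAAAAAAAAAAAAAAAAAA
HSP90AB1, chr6:44253874-44253903, plus strand: tttttatacaGTTCTGCTTTCCCTTGTGAA
HSP90AB3P, chr4:87894279-87894308, plus strand: tttttatacaAAAAAAAAAAAAAAAAGATG
The last 50 bases of the parents matched the retrocopies with 1, 0, 1 and 2 mismatches in this order. The 20 bases after the parents' ends held 1, 1, 2 and 2 A, and those after the matched stretches of the retrocopies 20, 19, 20 and 17.

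The assays agreed in broad order and differed widely for single genes. Across the 10960 genes that reached 10 counts in any 2 or more of these libraries, Spearman's rho between the mean 3′ end CPM and the mean RNA-seq CPM was 0.717, and Pearson's r of log2(CPM + 0.5) was 0.67. These describe genes of the same libraries, which are not independent replicates. Between libraries of 1 assay, r was 0.973 for the 3′ ends and 0.996 for RNA-seq, while it lay between 0.66 and 0.67 for the 4 pairs of a 3′ end and an RNA-seq library. Dividing RNA-seq by the exon length of each gene left rho at 0.711. Among 10488 tested protein-coding genes rho was 0.766. Among the 4534 coding genes whose annotated end matched nowhere else in the genome and whose exons overlapped no other gene, it was 0.819, and 0.832 with RNA-seq per exon length. Most of this rise was absent among genes with at least 10 counts in all 4 libraries. There rho was 0.651 over all genes, 0.674 over 7592 coding genes and 0.678 over 3378 coding genes with such ends and exons. Among the 280 tested processed pseudogenes rho was −0.08.

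**Figure D1:**
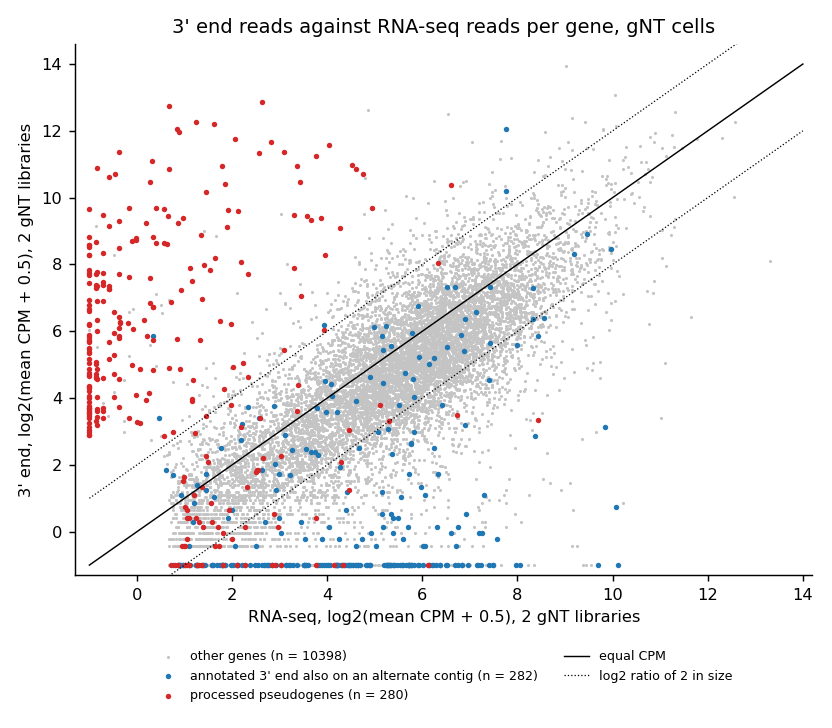
Each point is 1 of the 10960 tested genes, with its mean RNA-seq level on the horizontal axis and its mean 3′ end level on the vertical axis, both as log2(CPM + 0.5) over 2 gNT libraries. The 280 processed pseudogenes in red lie mostly at the upper left, and many genes whose annotated end is also found on an alternate contig of the genome, in blue, lie along the lower edge at 0 reads in the 3′ end libraries.

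Genes were called where edgeR's quasi-likelihood test gave a Benjamini-Hochberg adjusted p under 0.05 and the log2 ratio of 3′ end over RNA-seq was above 2 in size, a 4-fold difference. The 3′ end libraries were higher for 542 genes, or 4.95% of those tested, and RNA-seq for 2189, or 20.0%. With exon length as an offset of the RNA-seq libraries, the counts were 417 (3.81%) and 2197 (20.1%). The median log2(CPM + 0.5) ratio was −0.73, with quartiles of −1.63 and 0.16. The zero point depends on the scaling: with TMM factors the median was −0.15, 865 genes were higher in the 3′ end libraries and 1360 in RNA-seq, and 38.9% of calls in place of 19.8% were toward the 3′ end. Values near the median therefore carry no direction of their own. Of the genes tested, 7714 had at least 10 counts in all 4 libraries, 178 passed through the 3′ end libraries alone and 3055 through RNA-seq alone. A gene that passed through 1 assay alone was tested because it was counted there, so those calls are partly set by the filter. Of the calls toward the 3′ end and toward RNA-seq, 349 and 753 fell in the 7714. The gUSE libraries of the series, cells with a targeting gRNA, gave 552 and 2197 calls of the same kinds. Of the 542 gNT calls toward the 3′ end, 497 were among the 552 of gUSE, and of the 2189 toward RNA-seq, 1737 were among the 2197.

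Processed pseudogenes were the class that the 3′ end libraries counted far more than RNA-seq. Of the 280 tested, 210 were higher in the 3′ end libraries and 35 in RNA-seq, with a median log2(CPM + 0.5) ratio of 5.401, against 4.95% of all tested genes called in the first direction. Of the 280, 69 had at least 10 counts in all 4 libraries, and 58 of these were higher at the 3′ end and 3 in RNA-seq. All joined processed pseudogenes together held 10.94% and 10.96% of the 3′ end reads and 0.161% and 0.161% of the RNA-seq reads. The parent of 84 of the 210 was a cytosolic ribosomal protein gene by shared sequence. No RNA-seq count was found in either library for 54 of the 210.

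AP001324.1, a retrocopy of the ribosomal protein gene RPS12 on chromosome 11, had 14767 and 9567 reads in the 3′ end libraries and 10 and 10 in RNA-seq. Its log2 ratio was 12.60 ± 0.08 (SE, n = 2 libraries per assay; edgeR adjusted p = 7.0e-128). RPL10AP6, a retrocopy of RPL10A on chromosome 3, had 9001 and 5989 3′ end reads and 10 and 14 RNA-seq counts, a log2 ratio of 11.65 ± 0.08. Both stood far above every RNA-seq value of theirs in both 3′ end libraries. Their matches to the parents' ends are printed above with 20 and 19 A after them. RPS28P7 had 16043 and 10077 3′ end reads, among the 8 highest 3′ end levels of all joined genes, and 47 and 57 RNA-seq counts. RPS18P5, RPS15P4, HSP90AB3P, RPL13P12 and RPL21P16 completed the 8 largest ratios among called genes with at least 10 counts in all 4 libraries, with log2 ratios from 8.98 to 11.36. HSP90AB3P derives from HSP90AB1, which encodes a cytosolic chaperone, and the others from ribosomal protein genes. Per exon length, GASK1A, PLEKHA7 and PDZD2, which are protein-coding, stood among the 8 largest ratios beside AP001324.1, RPL10AP6, HSP90AB3P, RPS18P5 and RPS15P4, from 7.26 to 9.08.

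Among genes without a single RNA-seq count, the 6 with the most 3′ end reads were SRP14P2, RPS20P2, AC011495.1, AP001024.1, EIF1P7 and SEM1P1. SRP14P2, named after the signal recognition particle subunit SRP14, had 1820 and 1076 3′ end reads. Against a floor of 3 counts per RNA-seq library, its level was at least 2488-fold higher in the 3′ end libraries, and the bound was at least 953-fold for SEM1P1, the lowest of the 6. All reads of SRP14P2 fell on 1 PAS.

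An end of the parent gene with at most 2 mismatches in its last 50 bases was found at or within 2 kb after 64 of the 210 processed pseudogenes that were higher at the 3′ end, and at 6 of the other 70 tested. Behind these 64 ends the next 20 bases held a median of 16 A (quartiles 14 and 17), and 45 of them held at least 15. Behind the 6 ends at the other tested pseudogenes the median was 12.5 A, behind the ends of the parents 2, and behind those of tested coding genes 3. Of 10461 coding genes, 24 (0.229%) had at least 15 A there. The part of these bases in the counts was not tested.

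The parents of these retrocopies were often low in the 3′ end libraries. RPL13A, a protein of the large ribosomal subunit, had 26 and 11 3′ end reads and 18690 and 19422 RNA-seq counts, the largest ratio toward RNA-seq among called genes with at least 10 counts in all 4 libraries (log2 ratio −7.62 ± 0.09, edgeR adjusted p = 2.5e-97). RPL3, whose end is printed above, had 67 and 48 3′ end reads and 19945 and 20702 RNA-seq counts (−6.08 ± 0.07). EEF1A1, the elongation factor that brings aminoacyl-tRNA to the ribosome, was the most abundant joined gene in RNA-seq, at 91904 and 94969 counts, and had 609 and 362 3′ end reads (−5.21 ± 0.05). HSPA8, a constitutive Hsp70 chaperone, had 168 and 127 3′ end reads and 28335 and 30299 RNA-seq counts (−5.25 ± 0.06). In none of these 4 genes did the CPM of the assays overlap. RPS26, the pseudogene RPS2P5 and UBE2S, a ubiquitin-conjugating enzyme, were also among the 8 largest ratios toward RNA-seq, from −5.30 to −5.13. Per exon length, the pseudogenes RPL41P1 and RPL32P3 and FTL, the ferritin light chain, entered these 8 with −8.13, −6.15 and −6.27.

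Among the other genes with the 8 highest levels of an assay, ACTG1, a cytoplasmic actin, had 12721 and 8517 3′ end reads and 22951 and 23477 RNA-seq counts, a log2 ratio of 1.26 ± 0.03. HSP90AA1, the inducible partner of HSP90AB1, stood at −0.33 ± 0.03, HNRNPU, a nuclear RNA-binding protein, at 0.04 ± 0.03, and SRRM2, a spliceosome protein, at −1.97 ± 0.04, all among the 8 highest RNA-seq levels.

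Summing a parent with its retrocopies moved the median ratio toward the 3′ end. This move was largely set in advance, since the retrocopies as a class held far more 3′ end reads than RNA-seq reads. The sums therefore cannot show whether reads of a parent were counted on its copies, which was not tested. In 146 families, where at least 50% of the 21-base words of a retrocopy were shared with its parent, the median log2(CPM + 0.5) ratio was −1.35 for the parents alone and 0.15 for the sums, against −0.73 for all tested genes. RNA-seq was higher for 50 of these parents, or 34.2%, beside 20.0% of all tested genes, and the 3′ end for 11. In 61 families retrocopies held more of the 3′ end CPM than the parent did, and in none did they hold more of the RNA-seq CPM. For RPL3 the ratio went from −6.05 to 0.22 with RPL3P4 added, and for RPS18, a protein of the small subunit, from −6.71 to 2.43 with RPS18P5. The end of RPS18 also matched alternate contigs. Other parents stayed toward RNA-seq: RPL13A went from −7.62 to −1.69, EEF1A1 from −5.22 to −4.67 and RPS2 from −2.52 to −2.56. HSP90AB1 and HSP90AB3P shared the 3′ end reads almost equally, with 49.9% and 50.1% on the retrocopy in the 2 libraries, while the retrocopy had 0.105% of their RNA-seq level. HSP90AB1 alone had a log2 ratio of −0.02 ± 0.03 (edgeR adjusted p = 0.61). RPS12 alone had a ratio of 1.27, and the sum with AP001324.1 reached 4.50. Reads of near-identical copies can be split between them in either assay, so the values of single members are uncertain.

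**Figure D2:**
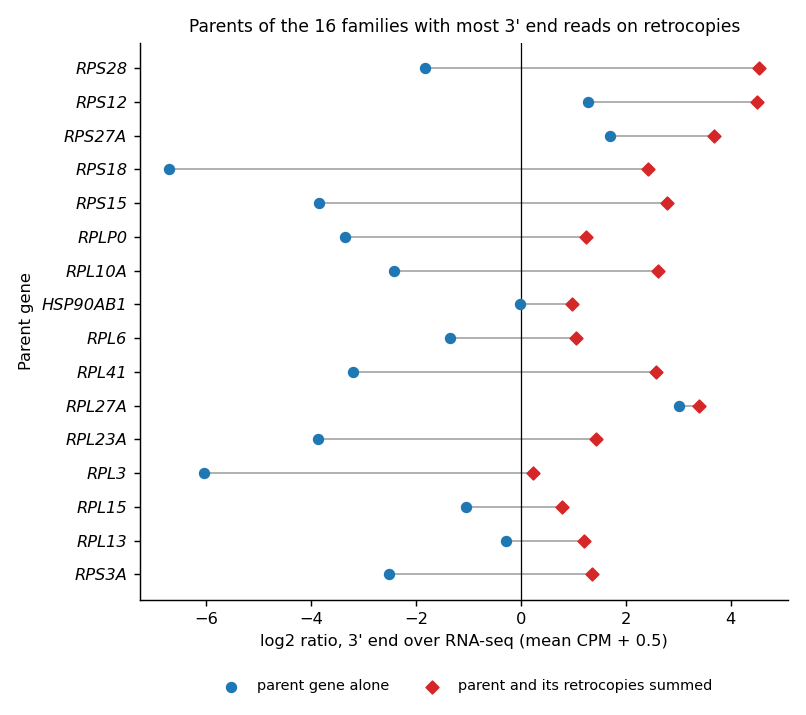
For the 16 families with the highest 3′ end CPM on retrocopies, blue circles give the log2 ratio of 3′ end over RNA-seq (mean CPM + 0.5, 2 libraries per assay) of the parent gene alone and red diamonds that of the parent and its retrocopies summed. RPS18 moves from −6.71 to 2.43 and RPL3 from −6.05 to 0.22, while RPL27A lies above 3 either way.

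Genes that RNA-seq counted and the 3′ end libraries did not were more frequent where the annotated end has another copy on an alternate contig of the genome. Of 8250 joined genes with at least 100 RNA-seq counts in both libraries, 178 (2.16%) had 0 reads in both 3′ end libraries. The annotated end of 188 genes was also found on an alternate contig, a second version of a region that the GRCh38 assembly carries beside the chromosome, and 91 of these (48.4%) had 0 reads. Of the 8062 others, 87 (1.08%) had 0 reads. When the rows that name several genes were also asked for reads, 88 and 25 genes were still at 0. The median log2 ratio was −5.26 for the 188 and −0.74 for the 8062. Of the 188, 144 (76.6%) were called higher in RNA-seq, against 1404 of the 8062 (17.4%) and 20.0% of all tested genes. Ends with a match elsewhere on the chromosomes but on no alternate contig were at 0 in 18 of 507 genes (3.55%). Both assays were counted from uniquely mapped reads. Whether the authors' genome index held the alternate contigs is not given in the sources used here, and their part in the 0 counts was not tested.

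**Figure D3:**
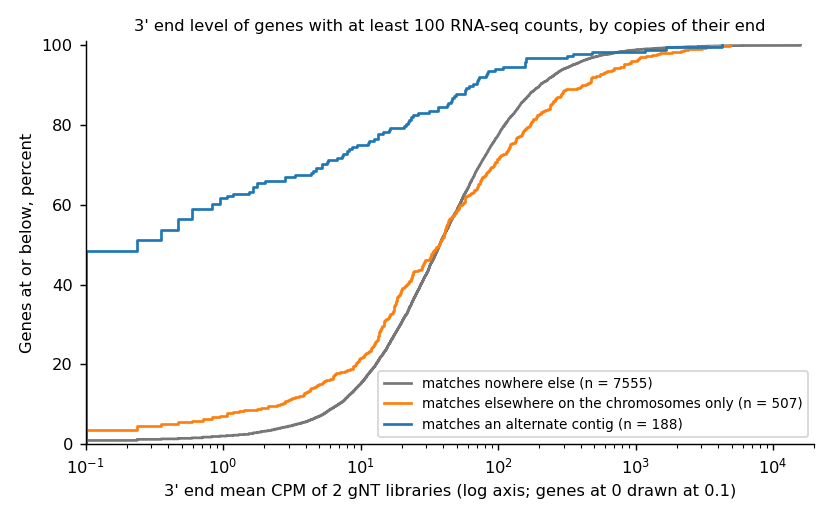
Cumulative share of genes (percent, vertical axis) at or below a 3′ end level (mean CPM of 2 gNT libraries, log axis, genes at 0 drawn at 0.1), for 8250 genes with at least 100 RNA-seq counts in both libraries. The 188 genes whose end is also on an alternate contig start at 48.4% of genes with 0 reads, the 507 with a match only elsewhere on the chromosomes at 3.55% and the 7555 without another match at 0.913%.

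The region of chromosome 6 from 28903002 to 33418317 on GRCh38, which holds the major histocompatibility complex, stood out, and was chosen after its values were seen. Its bounds are the first start and the last end of a block of genes, so the counts describe that block only. The ends of all 37 joined genes with at least 100 RNA-seq counts there matched alternate contigs, 28 had 0 reads in the 3′ end libraries and 36 were called higher in RNA-seq. On the rest of chromosome 6, 8 of 440 genes had 0 reads. PRRC2A, a large RNA-associated protein, had 0 and 0 3′ end reads and 7564 and 7645 RNA-seq counts, so its level was at least 466-fold lower at the 3′ end with 3 counts per library as the floor. BAG6, a chaperone of membrane proteins, had 2365 and 2474 RNA-seq counts and no 3′ end read, a level at least 148-fold lower. TUBB, a beta tubulin, had 2261 and 2322 counts and none at the 3′ end (at least 141-fold lower), and VARS1, the valyl-tRNA synthetase, 1653 and 1609 and none (at least 100.1-fold lower). BAG6, TUBB and VARS1 were chosen after their values were seen. RPS18 lies in the same region and had 23 and 8 3′ end reads and 8219 and 8619 RNA-seq counts.

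By the number of RNA-seq counts, the 6 leading genes with no 3′ end read were PRPF8, PRRC2A, AC138811.2, RPS10-NUDT3, EIF4H and GPI. PRPF8, a central protein of the spliceosome on chromosome 17, had 9753 and 10448 RNA-seq counts, so that its 3′ end level was at least 619-fold lower, and its end matched 1 alternate contig. The end of EIF4H, a translation initiation cofactor on chromosome 7 with 5938 and 6206 counts, matched 2 other places on the chromosomes. A retrocopy of EIF4H had 220 and 254 CPM in the 3′ end libraries and 8.79 and 9.91 CPM in RNA-seq. RPS10-NUDT3 is a readthrough gene, whose exons are those of its neighbours. Whether its RNA-seq counts are reads of those neighbours was not tested. For GPI, a glycolytic enzyme with 2953 and 3018 counts, only 2 PASs name it alone.

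Genes that no PAS row names alone could not be joined, and the abundant ones among them overlap other genes. On the 19 chromosomes covered in full, the 6 with the most RNA-seq counts were AP002990.1, EEF1G, SENP3-EIF4A1, AC016876.2, RPL26 and AC135178.3. EEF1G, a subunit of the elongation factor complex, had 18706 and 19059 counts, and AP002990.1, which spans it on chromosome 11, had 19073 and 19474. RPL26 had 11390 and 11950 counts, and AC135178.3, which overlaps it on chromosome 17, had 11152 and 11678. The counts within each of these pairs were thus nearly the same. Whether the same reads were counted for both genes of a pair was not tested. The strand setting of the RNA-seq counting is also not stated, so counts of overlapping genes are uncertain.

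Transcript length moved with the ratio of the assays. Among the 4534 coding genes with a single-copy end and no exon overlap, the median log2 ratio fell through the classes of canonical transcript length: it was 0.98 under 1 kb (212 genes), 0.16 from 1 to 2 kb, −0.49 from 2 to 4 kb, −1.03 from 4 to 8 kb and −1.43 over 8 kb (415 genes). The 3′ end was called higher for 53 of the 212 genes of the shortest class and 3 of the 415 of the longest, RNA-seq for 13 and 124. The least squares slope of the log2 ratio on log2 union exon length was −0.53 in these genes, −0.38 over the 10488 protein-coding genes and −0.63 over all genes tested, so the ratio fell by less than 1 for each doubling of length. With exon length as an offset, the order of the length classes turned for union exon length, from −1.49 under 1 kb to −0.14 over 8 kb. Transcript length and the other properties of short genes cannot be told apart in these data.

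**Figure D4:**
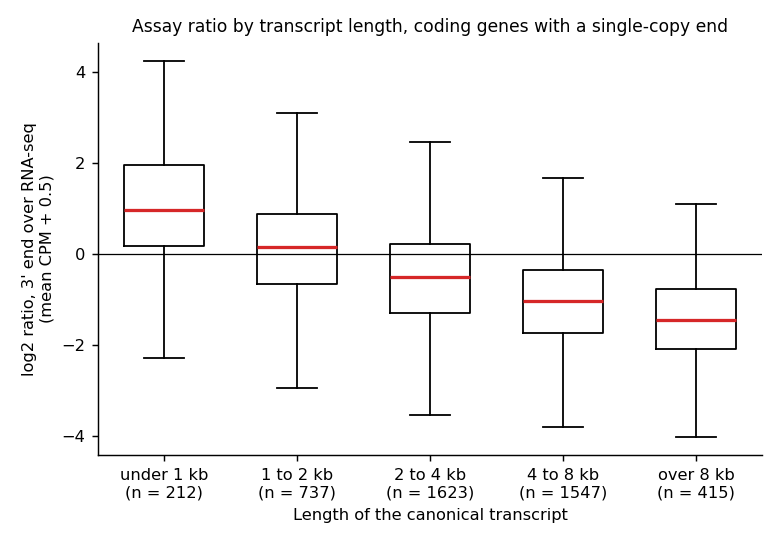
Log2 ratio of 3′ end over RNA-seq (mean CPM + 0.5, 2 libraries per assay) of 4534 coding genes with a single-copy annotated end and no exon overlap, by canonical transcript length. Boxes span the quartiles with the median in red, and whiskers reach 1.5 times the box or the last gene within it; medians run from 0.98 under 1 kb to −1.43 over 8 kb.

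Lists of genes with known roles were spread along the same axis. Of 59 tested genes of the nuclear-encoded respiratory chain, the enzymes of oxidative phosphorylation in mitochondria, 20 were higher at the 3′ end and 6 in RNA-seq (median 1.01, against 4.95% and 20.0% called and a median of −0.73 over all genes). ATP5MC3, a subunit of the ATP synthase ring, had 4787 and 3243 3′ end reads and 1867 and 1758 RNA-seq counts (3.53 ± 0.04). COX7C, a small subunit of cytochrome oxidase, had 2624 and 1883 and 969 and 1070 (3.53 ± 0.05). For both, every 3′ end CPM lay above both RNA-seq values. ATP5MG had a log2 ratio of 3.00 ± 0.04, and ATP5F1B, a catalytic subunit of the ATP synthase, −0.38 ± 0.04. The 20 genes had a median canonical length of 647.5 nt, against 3457.5 nt over tested coding genes. The ends of 2 of the 6 lower ones matched alternate contigs. These were NDUFA6, with 0 and 0 3′ end reads and 334 and 352 RNA-seq counts, and NDUFA3, with 2 and 0 and 403 and 354. The ends of NDUFA11, ATP5PO, SDHD and SDHA, which are also among the 6, matched nowhere else. Of the calls, all 20 toward the 3′ end and 0 of the 6 toward RNA-seq had at least 10 counts in all 4 libraries. Per exon length, 9 of the 59 were higher at the 3′ end and 8 in RNA-seq.

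Cytosolic ribosomal protein genes went both ways. Of 62 tested, 16 were higher at the 3′ end and 19 in RNA-seq, with a median of 0.00 and a range from −7.62 to 5.96. All tested genes together had 4.95% and 20.0% called in these directions and a median of −0.73. RPL37A had the highest 3′ end level of all joined genes, 33153 and 22476 reads beside 4669 and 4873 RNA-seq counts (4.93 ± 0.04, edgeR adjusted p = 2.4e-119). RPL27A followed, with 18702 and 11751 reads beside 9420 and 9995 counts (3.03 ± 0.03), and RPS19 was also among the 8 highest 3′ end levels (3.23 ± 0.04). RPS29 had 12137 and 8304 3′ end reads and 849 and 862 RNA-seq counts (5.97 ± 0.04), the largest ratio in the list, and its canonical transcript is 295 nt long. RPS2, one of the 8 joined genes with the highest RNA-seq levels, at 53950 and 56293 counts, had 2243 and 1448 3′ end reads (−2.52 ± 0.04). The 16 and the 19 genes had similar canonical lengths, with medians of 637 and 754 nt. The annotation names a median of 4 pseudogenes of any type after each of the 16 and 13 after each of the 19.

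Giant cytoskeletal and chromatin proteins lay at the other end. Of 41 tested genes 23 were higher in RNA-seq and none at the 3′ end, with a median of −2.16. Over all genes, 20.0% and 4.95% were called in these directions and the median was −0.73. Of these 23, 18 had at least 10 counts in all 4 libraries. SPEN, a nuclear repressor, had 167 and 115 3′ end reads and 8966 and 9267 RNA-seq counts (−3.63 ± 0.07). MKI67, a coat protein of mitotic chromosomes, had 416 and 288 and 10050 and 10733 (−2.50 ± 0.05). DYNC1H1, the heavy chain of cytoplasmic dynein, had a log2 ratio of −0.24 ± 0.05 in spite of a canonical length of 19940 nt. Per exon length, 7 of the 41 were higher in RNA-seq and 1 at the 3′ end.

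Replication-dependent histone mRNAs are known to end in a stem-loop in place of a poly(A) tail. Of the 68 such genes that the RNA-seq data list, 26 were joined and 17 tested, and 7 had at least 10 counts in all 4 libraries. A gene could be joined only where a listed PAS names it alone, so the joined genes need not stand for the whole list. The median log2 ratio of the 17 was 0.51, none was called higher in RNA-seq, and H1-2 and H4C11 were higher at the 3′ end. Across all tested genes the median was −0.73, with 20.0% called higher in RNA-seq and 4.95% at the 3′ end. H1-2, a linker histone, had 225 and 140 3′ end reads and 71 and 90 RNA-seq counts (3.56 ± 0.15). H4C11, a core histone, had 45 and 20 3′ end reads and 1 and 3 RNA-seq counts, and so passed through the 3′ end libraries alone. Per exon length, 6 of the 17 were higher in RNA-seq and 1 at the 3′ end, with a median of −1.19. H2BC12 had the highest RNA-seq level of the list, with 535 and 624 counts beside 150 and 114 3′ end reads (0.25 ± 0.12). The summed level of the 17 was 303 CPM at the 3′ end and 155 CPM in RNA-seq. Of 8 polyadenylated histone variants, H2AZ1 (2.55 ± 0.04) and H3-3B (2.17 ± 0.04) were higher at the 3′ end.

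Of 26 translation factors, 6 were higher in RNA-seq and none at the 3′ end, with a median of −0.53, against 20.0% and 4.95% called over all genes. Of the 6, 4 had at least 10 counts in all 4 libraries, and EIF4H and EIF6 had no 3′ end read. EEF2, the translocase of the ribosome, had 7688 and 4876 3′ end reads and 45539 and 47278 RNA-seq counts (−0.51 ± 0.03). TPT1 stood at 0.58 ± 0.04 and EIF4G2 at −0.06 ± 0.04. Zinc finger genes of chromosome 19, which mostly encode DNA-binding repressors, had a median of −0.93, and 3 of 174 were higher at the 3′ end and 33 in RNA-seq, against 4.95% and 20.0% over all genes, so the count toward RNA-seq was near the background. Of the 33, 3 had at least 10 counts in all 4 libraries. ZNF146, the most abundant of them, had a ratio of −0.63 ± 0.06. ZNF428 had 421 and 280 3′ end reads and 371 and 435 RNA-seq counts (2.18 ± 0.09), and was one of the 3. Of 34 snoRNA host genes only TAF1D and SNHG32 were joined. TAF1D had 28 and 23 3′ end reads and 2278 and 2460 RNA-seq counts (−4.15 ± 0.13). SNHG32 had no 3′ end read beside 493 and 492 counts, and its end matched 4 places on alternate contigs. No nuclear lncRNA and no small stable noncoding RNA of the lists was joined, so the assays could not be compared there.

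**Figure D5:**
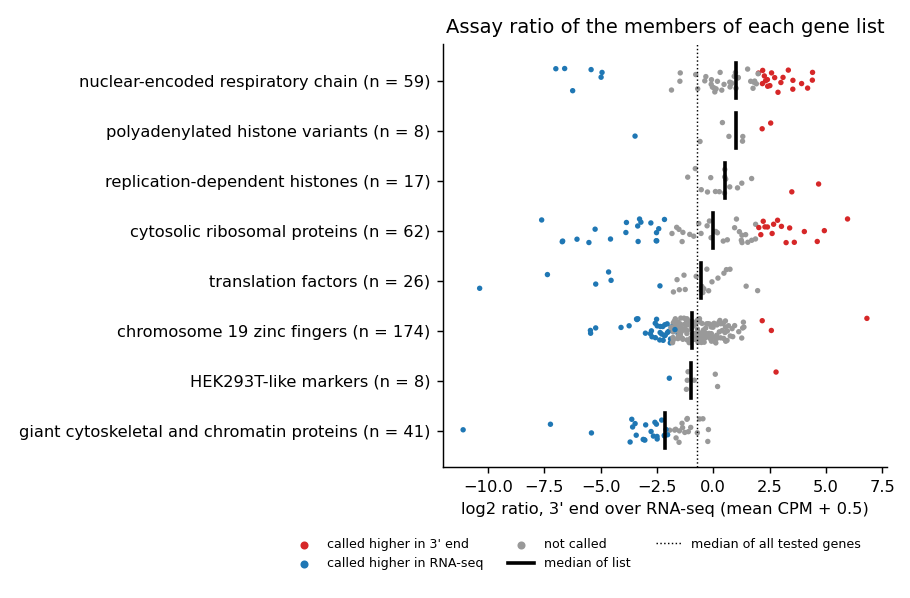
Each point is a tested gene of a list, placed by its log2 ratio of 3′ end over RNA-seq (mean CPM + 0.5, 2 libraries per assay); red and blue mark genes called higher at the 3′ end and in RNA-seq, black bars the median of each list and the dotted line that of all tested genes. Medians run from 1.01 for the respiratory chain to −2.16 for giant cytoskeletal and chromatin proteins.

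Of 323 coding genes higher at the 3′ end, 219 had at least 10 CPM in RNA-seq, with a median canonical length of 1162 nt. The other 104 were under 10 CPM, with a median of 1825.5 nt, against 3457.5 nt over tested coding genes. A single PAS held more than 90% of the 3′ end reads in 77 of the 104 and in 185 of the 219. Over the 7614 tested coding genes with at least 10 reads in both 3′ end libraries, this was so for 2763. PLEKHA7, an adherens junction protein on chromosome 11, had 13376 and 8903 3′ end reads, among the 8 highest levels of all, and 253 and 269 RNA-seq counts (7.80 ± 0.05, edgeR adjusted p = 3.7e-125). Its reads came from 1 of its 9 PASs in 22258 cases. GASK1A had 1120 and 706 3′ end reads and 16 and 24 RNA-seq counts, and the largest log2 ratio per exon length among called genes with at least 10 counts in all 4 libraries (9.08). PDZD2 had 1486 and 1081 and 65 and 76, and per exon length 8.13. NEGR1, a neuronal adhesion protein chosen after its values were seen, had 677 and 428 3′ end reads at 1 of 21 PASs and 3 and 1 RNA-seq counts. The end of another gene was found on the same strand within 17 of the 104 genes, and the 20 bases after it held from 2 to 18 A with a median of 9. NEGR1, with 18 A, had the most of the 17, and PDZD2 had 16. Genes of the 219 held such ends too, among them PCNX2 with 20 A after it and RPL37A with 3. The share over all tested coding genes is not given here, so this trait is not shown to be particular to the 104. Whether those bases bear on the counts was not tested.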

How the data were processed

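The 4 gNT libraries of HEK293TAPA cells were analysed, 2 per assay. The deposited values are raw read counts: the authors trimmed adaptors, aligned reads to hg38 with STAR 2.7.9 and counted unique reads with featureCounts, per PolyA_DB3 PAS for the 3′ ends (within 24 nt) and per GENCODE v37 gene for RNA-seq. PASs are listed on a build that is not named, so their positions were not used. Rows naming 1 gene were summed; rows naming several genes or none were left out. CPM used the totals over joined genes. Calls came from edgeR 4.0.16 (glmQLFit, glmQLFTest; R 4.3.3), SE from the F statistic; the test recovered known changes in simulated data. DESeq2 1.42.0 was an alternative. Lengths, positions and biotypes came from GENCODE v44. Annotated ends (last 50 bases) were searched in all GRCh38 contigs with at most 2 mismatches; parents of pseudogenes were the coding genes sharing most 21-base words. Counting error limits low values: 3 counts were taken as the floor. PCR reads are not independent molecules, so floors cover counting error only.

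Named genes were the 8 largest ratios in each direction, per CPM and per length, among calls with 10 counts in all 4 libraries, the 8 highest levels per assay, 4 members per list, and 6 genes each at 0 in 1 assay or without a PAS row; other names are marked where used or were the parents, retrocopies and list members a count turned on. Some genes that this rule names are not reported here. The members and lists were chosen with earlier results of these data known.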

Additional observations from a re-analysis of the deposited data

Results flagged for a closer look

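Some 3′ end reads lay outside the comparison of genes. In gNT replicates 1 and 2, reads at PASs without a gene name made up 6.95% and 7.26% of the total, and those at PASs with more than 1 gene name 3.98% and 3.95%. These were flagged because they are signal in rows that the comparison left out. No group of samples had enough libraries to look for a sample far from the others.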

How the results depend on the processing

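No paired analysis was possible because the 3′ end libraries carry the numbers 1 and 2 and the RNA-seq libraries 5 and 6. Of 50 recomputed counts of calls 42 stayed within 1.5 times. TMM factors gave 865 and 1360 genes higher at the 3′ end and in RNA-seq, and 797 and 1436 per exon length. Asking for 10 counts in all 4 libraries gave 349, 753, 216 and 735 in the same order, from fewer genes tested. Without each library in turn the counts ran from 538 to 546, 1889 to 2245, 406 to 422 and 1933 to 2233. Leaving out processed pseudogenes, an alternative chosen after seeing the data, gave 399, 1880, 290 and 1942, and DESeq2 539, 1994, 414 and 2034. The rank correlation of CPM was 0.651 with 10 counts in all 4 libraries, 0.705 in gUSE and 0.714 to 0.717 without each library; per exon length it was 0.691, 0.699, 0.723 with canonical lengths, and 0.707 to 0.711. The slope on length was −0.61 with a pseudocount of 1, −0.65 with 10 counts in all 4, −0.64 in gUSE, −0.65 with canonical lengths and −0.63 without each library. With TMM factors the list medians were 1.05 (replication-dependent histones), 1.60 (polyadenylated variants), 0.61 (ribosomal proteins), 1.61 (respiratory chain), −1.57 (giant proteins), −0.33 (zinc fingers), 0.078 (translation factors), −0.38 (HEK293T-like markers) and −0.15 (all genes). With 10 counts in all 4 libraries they were 1.30 for polyadenylated variants, 0.15 for ribosomal proteins, 1.52 for the respiratory chain, −0.61 for zinc fingers and −0.47 for all genes. In gUSE they were 0.77 for polyadenylated variants, −0.063 for ribosomal proteins, −0.60 for translation factors and −0.84 for HEK293T-like markers, and a pseudocount of 1 gave −0.70 for all genes. Without each library the medians lay between 0.34 and 0.47 for replication-dependent histones, −0.0018 and 0.024 for ribosomal proteins, 0.99 and 1.12 for the respiratory chain, −2.25 and −1.97 for giant proteins, −0.99 and −0.92 for HEK293T-like markers and −0.75 and −0.73 for all genes. The cause of these shifts was not tested. Lists with fewer than 5 tested genes were not recomputed, and a pseudocount does not alter a rank correlation. Depth limits the 3′ end libraries, where 3 counts equal 1.42 and 2.13 CPM.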
